A study of Caenorhabditis elegans with 17 samples.

Results

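Fatty acids in *C. elegans* are activated to acyl-CoA by acyl-CoA synthetases (*acs*), oxidized by acyl-CoA dehydrogenases (*acdh*) and enoyl-CoA hydratases (*ech*), lengthened by elongases (*elo*), desaturated by fatty acid desaturases (*fat*), carried by lipid binding proteins (*lbp*) and released from stored lipid by lysosomal-type lipases (*lipl*). The oocyte receives much of its lipid as yolk, which the maternal intestine makes and the oocyte takes up through the receptor RME-2, and it also carries maternal mRNA into the embryo. The genes described here are the 77 genes, of 21459 in the deposited table of oocyte mRNA, whose name begins with 1 of these 7 family names. Membership rests on the name alone, so a member need not carry out the reaction given for its family. They are 21 *acs*, 13 *acdh*, 10 *ech*, 9 *elo*, 7 *fat*, 9 *lbp* and 8 *lipl* genes.

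The study asked whether mRNA in oocytes differs between wild-type (N2) mothers kept on control culture and mothers kept on 300 mM NaCl from the L4 larval stage to the first day of adulthood. By the labels, 8 libraries come from 300 mM NaCl and 9 from control culture, with 3 replicate numbers in each group, all of total RNA from dissected oocytes, to which a small amount of gonadal sheath remained attached. The table holds a single value of abundance per gene, the authors' mean normalized count, which averages the libraries of both groups. It therefore has no SD and no n, the depth of single libraries is unknown, and values of a library or of either group alone were not used. The remaining columns give the authors' own comparison and were not used here. The values below thus describe each transcript's abundance in these samples, oocytes with some sheath attached, and not how it differed between the groups. The order of genes by level is a description, and whether neighbours in that order differ beyond the spread between libraries could not be tested.

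Levels of different genes are compared as the authors' mean normalized count per kilobase of annotated exon, called the level below. All genes of the table with an annotated length had a median level of 14.2, and their 90th percentile was 446. The labelled cell type was set beside marker genes. These were chosen with earlier results of these data known, so they are not an independent check of it. All 13 oocyte markers had levels from 457 (*lin-41*) to 3856 (*perm-2*), with a median of 1201. The 7 gonadal sheath markers ranged from 15.2 (*tnc-2*) to 1117 (*inx-8*), and their median was 129. Intestine markers were lower, with a median of 18.3 over 12 genes and a highest level of 74.4 for the vitellogenin gene *vit-2*. The medians of 9 sperm and 5 epidermis markers were 19.4 and 9.27. None of these markers was listed at 0, and their part in the levels of the fatty acid genes was not tested. In such bulk samples, fewer cells of a type and less RNA per cell cannot be told apart.

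Most fatty acid genes reached a mean normalized count of 10 in the oocyte libraries, and the smallest share of members that did was in the lipase family. A mean normalized count of 10 or more was reached by 57 of the 77 genes (74.0%, exact 95% binomial interval 62.8 to 83.4), while 52.6% of all genes and 59.6% of protein-coding genes in the table reached it. It was also reached by all 13 oocyte and all 7 gonadal sheath markers, 9 of 12 intestine, 6 of 9 sperm and 3 of 5 epidermis markers. Reaching 10 therefore does not by itself place a transcript in the oocyte. At a minimum of 100, the count of members was 29 of 77 (37.7%), close to the 36.3% of protein-coding genes and above the 30.8% of all genes. The binomial interval treats the members as independent draws and covers counting error only. By family, 17 of 21 *acs*, 11 of 13 *acdh*, 8 of 10 *ech*, 7 of 9 *elo*, 5 of 7 *fat* and 7 of 9 *lbp* genes reached 10, against 2 of 8 *lipl* genes. With 8 genes the exact 95% binomial interval for the *lipl* share runs from 3.19% to 65.1% and takes in the shares of all and of protein-coding genes. All 8 *lipl* genes reached a minimum of 1, as did 93.3% of protein-coding genes. No *lipl* gene reached 100, where *elo* (2 of 9) and *acs* (7 of 21) were also below the share of protein-coding genes. The 20 genes below 10 were *acs-3*, *acs-7*, *acs-14*, *acs-15*, *acdh-5*, *acdh-6*, *ech-8*, *ech-9*, *elo-7*, *elo-8*, *fat-5*, *fat-7*, *lbp-7*, *lbp-8*, *lipl-1*, *lipl-2*, *lipl-3*, *lipl-4*, *lipl-6* and *lipl-8*.

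**Figure D1:**
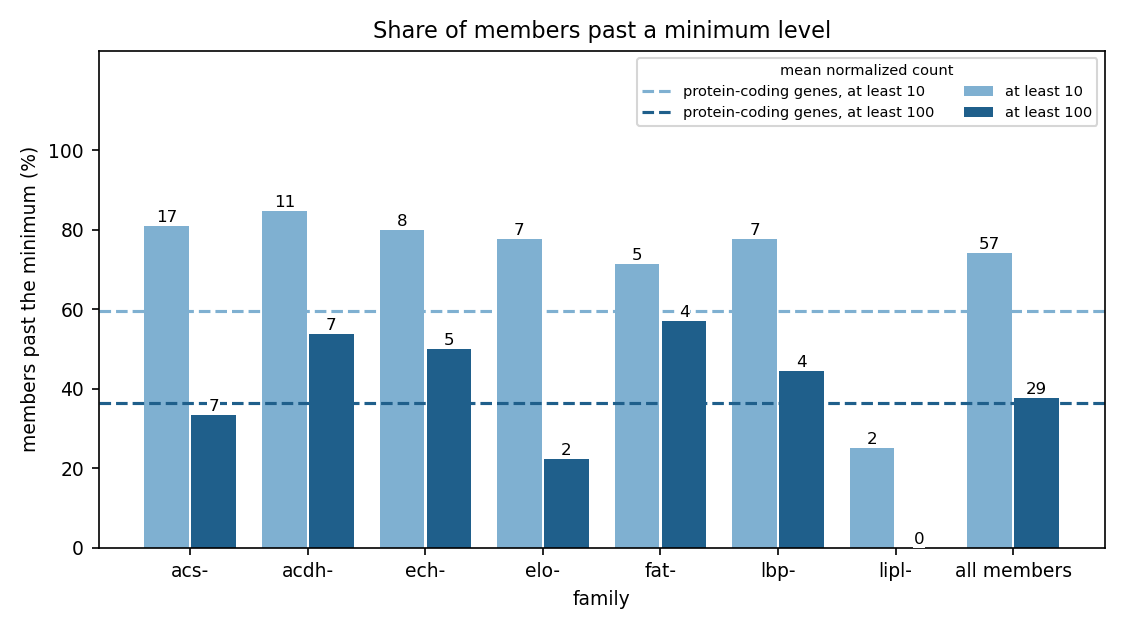
Percentage of the members of each family (y axis) with an authors' mean normalized count of 10 or more (light bars) or 100 or more (dark bars), with the number of members above each bar. Dashed lines mark the same shares of protein-coding genes, 59.6% and 36.3%. The *lipl* family lies below both, and *elo* and *acs* lie below the lower line at 100.

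The 77 levels ran from 0.734 (*ech-9*) to 1252 (*lbp-9*), and their median was 22.5, at percentile 55.8 of all genes. Around that median, 11 members lay at or above the 90th percentile of all genes, while 30 lay below the median of all genes. Both limits are defined on all genes, which by definition also lie on either side of them. A spread across these limits is therefore not by itself a trait of the 77 genes. Whether the members' shares differ from those of all genes was not tested. The 11 members were *lbp-9*, *acs-13*, *acs-19*, *acs-4*, *acdh-3*, *elo-1*, *ech-1.2*, *fat-1*, *ech-4*, *acdh-12* and *ech-6*. Every family except *lipl* had at least 1 of them. The highest family median belonged to *acdh* (280), followed by *lbp* (155), *fat* (120), *ech* (78.2), *elo* (56.5), *acs* (16.2) and *lipl* (1.69).

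**Figure D2:**
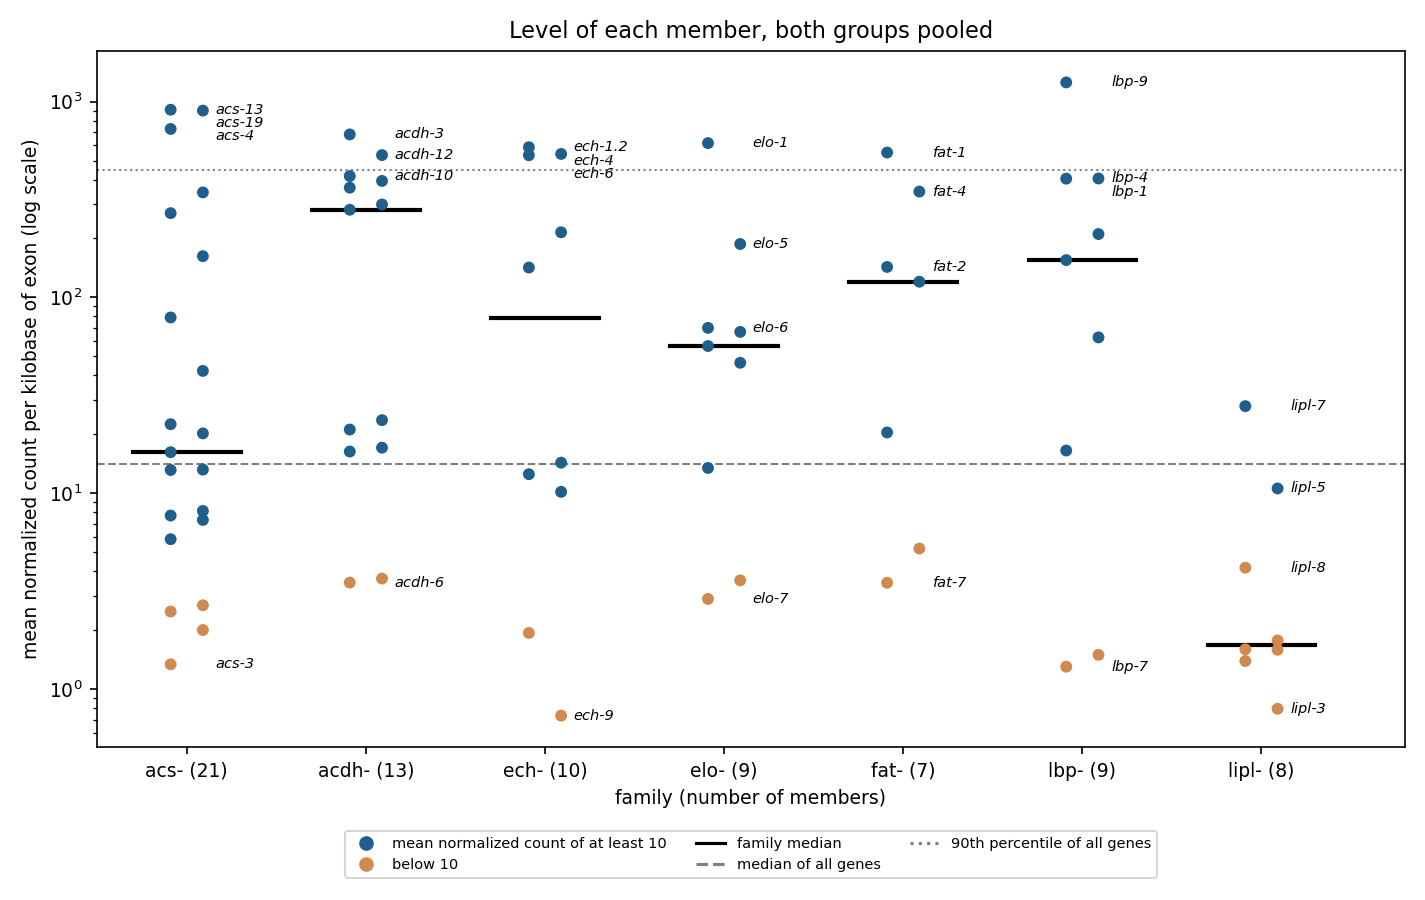
Level of each of the 77 genes, as the authors' mean normalized count per kilobase of exon on a log axis, by family. Points are genes, blue where the mean normalized count is 10 or more and orange below it, with the 3 highest and the lowest gene of each family named. Black lines are family medians, from 1.69 for *lipl* to 280 for *acdh*, and grey lines mark the median (14.2) and the 90th percentile (446) of all genes.

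The *acs* genes are named for acyl-CoA synthetases, which couple a free fatty acid to coenzyme A before it can be oxidized or built into lipid. Their levels ran from high to low without a wide gap. The widest step between genes next to each other in order was 2.17 times, from *acs-18* to *acs-15*. Of the 21 genes, 11 lay above the median of all genes. *acs-13* (WBGene00022037, chromosome I from 511044 to 519646 in WBcel235) was highest, with a mean normalized count of 2418 and a level of 908. It was followed by *acs-19* (chromosome III from 3864489 to 3867098), whose mean normalized count was 2099 and level 899, and by *acs-4* (chromosome III from 7167838 to 7170990), an enzyme of the long-chain type, with 2053 and 725. These 3 genes and *acs-11* (344) made up 81.0% of the summed level of the family. *acs-1* (269), which activates the monomethyl branched-chain fatty acids that *C. elegans* embryos require, *acs-20* (162), a homologue of the fatty acid transport proteins, and *acs-9* (79.0) complete the 7 genes whose mean normalized count reached 100. The second fatty acid transport protein homologue, *acs-22*, had a lower level of 16.2. Another 10 genes had a mean normalized count from 10 to below 100, with levels between 5.83 (*acs-18*) and 42.2 (*acs-21*). They include *acs-2* (13.2), a mitochondrial synthetase known as a target of the nuclear hormone receptor NHR-49 in fasted animals. The level of *acs-13* was 69.0 times that of *acs-2*. *acs-3* (chromosome V from 1969528 to 1974514) was lowest, with a mean normalized count of 2.81 and a level of 1.34.

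The acyl-CoA dehydrogenases, which carry out the first step of mitochondrial beta-oxidation and related steps of amino acid breakdown, formed the family with the highest median. Of the 13 genes, 7 had levels of 280 or more, the other 6 had levels of 23.6 or less, and no gene lay in between. These 7 genes held 97.2% of the summed level. They were *acdh-3* (chromosome I from 6464195 to 6466941, mean normalized count 1023, level 680), *acdh-12* (chromosome II from 7192429 to 7195641, mean normalized count 1089, level 533), *acdh-10* (chromosome X from 17213144 to 17214903, mean normalized count 577, level 417), *acdh-13* (393), *acdh-7* (363), *acdh-11* (298) and *acdh-9* (280). *acdh-12* is related to the very long-chain enzymes of mammals and *acdh-7* and *acdh-10* to the medium-chain enzymes, while ACDH-11 is known to bind medium-chain acyl-CoA and to restrain *fat-7* in warm-grown animals. The lower group held *acdh-8* (23.6), *acdh-2* (21.2), *acdh-1* (17.1), *acdh-4* (16.4), *acdh-5* (3.67) and *acdh-6* (chromosome III from 8561136 to 8563026, mean normalized count 4.66, level 3.50). *acdh-1*, which acts in the propionate shunt used when vitamin B12 is scarce, was thus 1 of the less abundant members, and the level of *acdh-12* was 31.2 times as high. For *acdh-3*, 14.3% of the exon bases lie in exons of other genes on the opposite strand.

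The *ech* genes, named for enoyl-CoA hydratases, which add water to the product of the dehydrogenases, included 3 with similar high levels per kilobase. These were *ech-1.2* (chromosome I from 6206955 to 6211155, level 585), *ech-4* (chromosome II from 10821031 to 10822391, level 540) and *ech-6* (chromosome III from 9751552 to 9752883, level 532), and together they held 80.7% of the summed level of the family. The similarity holds only per length, since their mean normalized counts were 1560, 685 and 541, and without division by length *ech-1.2* alone held 48.5% of the family's sum in place of 28.5%. *ech-1.2* and *ech-1.1* are both homologues of the alpha subunit of the mitochondrial trifunctional protein. Their levels were 585 and 12.5, a ratio of 46.6. *ech-6* encodes a homologue of the mitochondrial short-chain hydratase. Intermediate levels were found for *ech-3* (215) and *ech-2* (142), and low levels for *ech-7* (14.3) and *ech-5* (10.2). *ech-8* (1.94) and *ech-9* (chromosome IV from 10233310 to 10235329, mean normalized count 1.21, level 0.734) were lowest, and *ech-9* was the lowest of all 77 genes.

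A single gene, *elo-1*, held most of the summed level of the elongases. *elo-1* (WBGene00001239, chromosome IV from 9526366 to 9528336), which lengthens polyunsaturated fatty acids on the way to arachidonic and eicosapentaenoic acid, had a mean normalized count of 651 and a level of 614, or 57.9% of the family's sum. *elo-2*, which lengthens palmitate, had a level of 66.7, and the ratio of *elo-1* to it was 9.20. The elongases of monomethyl branched-chain fatty acids, *elo-5* (chromosome IV from 5374616 to 5377117) and *elo-6* (chromosome IV from 5386629 to 5388559), had mean normalized counts of 173 and 64.7 and levels of 187 and 69.9. In *elo-5*, 17.6% of the exon bases overlap exons of *F41H10.3*, the largest such share among the 77 genes. *elo-3* (56.5), *elo-4* (46.4) and *elo-9* (13.5) lay lower. *elo-8* (3.60) and *elo-7* (chromosome IV from 9529947 to 9531400, mean normalized count 3.30, level 2.89) were near the bottom of the range.

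Desaturases fell into a high and a low group that matched their step in the pathway. The enzymes that make polyunsaturated fatty acids were all abundant. *fat-1* (WBGene00001393, chromosome IV from 13315644 to 13318811), the omega-3 desaturase, had a mean normalized count of 778 and a level of 549. *fat-4* (chromosome IV from 9799429 to 9802226), which acts late in the synthesis of arachidonic and eicosapentaenoic acid, had a mean normalized count of 535 and a level of 347. *fat-2* (chromosome IV from 13323873 to 13326395), which converts oleic to linoleic acid, had a mean normalized count of 179.6 and a level of 143. For *fat-3* (chromosome IV from 9803023 to 9806119), which acts on the linoleic acid that FAT-2 provides, these values were 179 and 120. The enzymes that introduce the first double bond into saturated fatty acids were scarce. *fat-6* (chromosome IV from 11913692 to 11915687), a stearoyl-CoA desaturase, had a mean normalized count of 23.9 and a level of 20.5. *fat-5* (chromosome V from 17725004 to 17726818), a palmitoyl-CoA desaturase, and *fat-7* (chromosome V from 7151353 to 7153146), the other stearoyl-CoA desaturase, had mean normalized counts of 5.77 and 3.94 and levels of 5.23 and 3.50. The summed level of the 4 polyunsaturated desaturases was 1160, against 29.2 for the 3 others, a ratio of 39.7. *fat-6* and *fat-7* encode closely related enzymes, and the methods do not state how reads shared by such genes were assigned, so the split between them is uncertain. The same limit holds for any other members of a family with similar sequences, and similarity was not measured here.

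Lipid binding proteins, small carriers of fatty acids, included the gene with the highest level per kilobase of the 77. *lbp-9* (WBGene00021486, chromosome V from 2068449 to 2069142) had a mean normalized count of 706 over only 564 exon bases, which gives a level of 1252, percentile 98.9 of all genes and 49.9% of the family's sum. By mean normalized count, without division by length, it ranked 9 of the 77, and *acs-13* (2418) was highest. *lbp-4* (chromosome V from 7820578 to 7821477) and *lbp-1* (chromosome X from 3259142 to 3259812) followed, with mean normalized counts of 240.1 and 224 and levels of 405 and 404. Next in order were *lbp-6* (chromosome I from 6728296 to 6729376), with a mean normalized count of 111 and a level of 211, and *lbp-3* (chromosome X from 3257372 to 3258155), with 96.8 and 155. *lbp-5* (chromosome I from 6731267 to 6732276) had a mean normalized count of 30.1 and a level of 62.5, and *lbp-2* (chromosome X from 3260610 to 3261470) had 12.6 and 16.5. *lbp-8* (chromosome V from 13890773 to 13891364), known as a carrier of lysosomal lipid signals to the nucleus of intestinal cells, and *lbp-7* (chromosome V from 13879552 to 13880213) were the only 2 of the 77 genes with a mean normalized count below 1, at 0.791 and 0.674. Their levels were 1.499 and 1.304. The level of *lbp-9* was 836 times that of *lbp-8*, a ratio that rests on a mean normalized count below 1 for *lbp-8*.

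**Figure D3:**
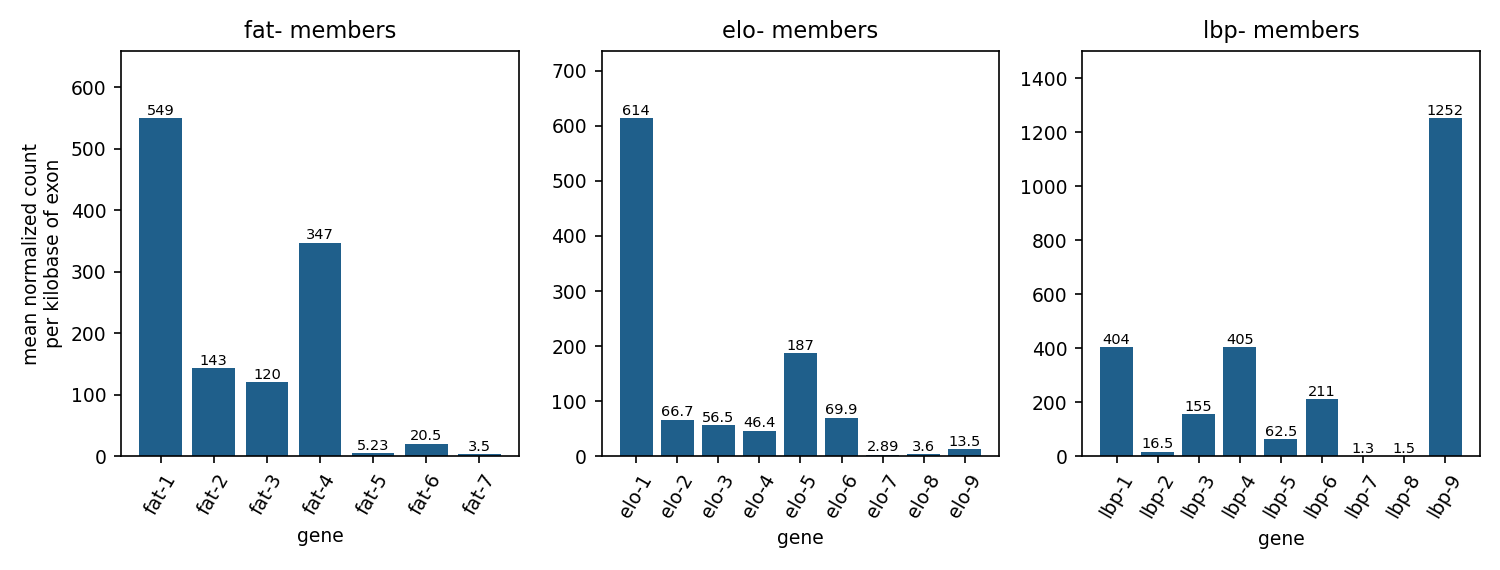
Level of every *fat*, *elo* and *lbp* gene, as the authors' mean normalized count per kilobase of exon, on linear axes that start at 0 and differ in range between panels. Bars are single values over both groups, with no error because the table gives none. *fat-1* to *fat-4* stand between 120 and 549 and *fat-5* to *fat-7* between 3.50 and 20.5, while *elo-1* (614) and *lbp-9* (1252) exceed the other members of their families.

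The lipases of the lysosomal type were scarce in the oocyte libraries. *lipl-7* (chromosome IV from 10239278 to 10241823) was highest, with a mean normalized count of 36.1 and a level of 27.9. *lipl-5* (chromosome V from 385746 to 387740) had a mean normalized count of 13.4 and a level of 10.6. For *lipl-8* (chromosome V from 14745684 to 14748708) these values were 5.05 and 4.17, and for *lipl-3* (chromosome V from 521595 to 524218), the lowest, 1.14 and 0.795. Between them lay the levels of *lipl-2* (1.39), *lipl-4* (1.59), *lipl-6* and *lipl-1* (1.77), in rising order. *lipl-4* is known for its role in intestinal lipolysis and lifespan, and *lipl-1* and *lipl-3* for breakdown of lipid droplets in the lysosomes of fasted animals. The median level of the family was 1.69, and the median of its members' percentiles among all genes was 12.9. The 12 intestine markers had levels from 2.67 to 74.4, with a median of 18.3.

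Several members of a family lie near each other in the genome, and their levels often differed, much as those of other neighbouring genes did. Within 20 kb, 11 pairs were found, all on the same strand, and in 9 of them (81.8%) the higher level was more than 2 times the lower. Of all 40330 pairs of protein-coding genes on the same strand within that distance, 73.5% differed by as much, so the count is near the background. The widest difference was between *elo-1* and *elo-7*, which are separated by 1610 bases with no protein-coding gene between them. Their levels were 614 and 2.89, a ratio of 212 that rests on a mean normalized count of only 3.30 for *elo-7*. The *lbp-1*, *lbp-2* and *lbp-3* genes lie within 4099 bases of the X chromosome, with *lbp-1* in the middle. The level of *lbp-1* was 404, against 155 for *lbp-3* and 16.5 for *lbp-2*, a ratio of 24.4 to the latter, and the ratio of *lbp-3* to *lbp-2* was 9.37. In the desaturase pair *fat-4* and *fat-3*, separated by 796 bases, the levels were 347 and 120, and in *fat-1* and *fat-2*, separated by 5061 bases, they were 549 and 143. By contrast *acdh-10* and *acdh-7*, separated by 114 bases, had levels of 417 and 363, a ratio of 1.15. The level of *lbp-8* was 1.15 times that of *lbp-7*, and both lay near the lower end of the range.

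**Figure D4:**
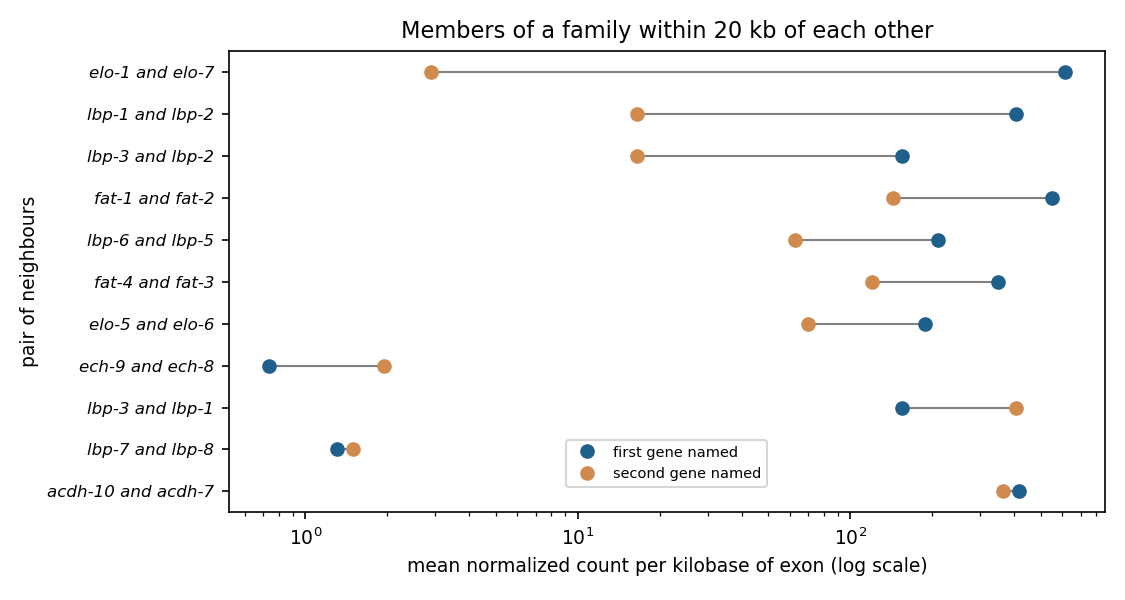
Levels of the 11 pairs of family members with at most 20 kb between them, as the authors' mean normalized count per kilobase of exon on a log axis. The first gene named is blue and the second orange, and pairs are ordered by the ratio of the levels, from 1.15 for *acdh-10* and *acdh-7* at the bottom to 212 for *elo-1* and *elo-7* at the top.

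Other genes of lipid metabolism, taken from a list of 50, gave a setting for these families. Of the 50, 36 (72.0%) had a mean normalized count of 10 or more, beside 52.6% of all genes and 59.6% of protein-coding genes. The 50 were chosen with earlier results of these data known, and their median level was 198. Most genes listed under mitochondrial oxidation were abundant and most listed under peroxisomal oxidation were scarce. For mitochondrial oxidation, 10 of 11 genes reached 10, with a median level of 495. They include *cpt-1* (577) and *cpt-2* (388), carnitine palmitoyltransferases that bring fatty acids into the mitochondrion, the thiolases *kat-1* (588) and *acaa-2* (672), and *let-721* (495), which passes electrons from the acyl-CoA dehydrogenases to ubiquinone. The exception was *hacd-1*, at 3.52. The 11 also include the propionate genes *pcca-1* (683), *pccb-1* (580), *mmcm-1* (449) and *mce-1* (187), so they are not all beta-oxidation genes. For peroxisomal oxidation, which also shortens the side chains of ascaroside pheromones, 6 of 15 genes reached 10 and the median level was 4.07. Among these were the thiolase *daf-22* (3.97), *maoc-1* (8.44), *dhs-28* (27.2), and the acyl-CoA oxidase genes, which ranged from 2.49 (*acox-1.1*) to 36.9 (*acox-3*). The highest of the 15 was *prx-10* (183), which acts in the assembly of peroxisomes. The 15 are thus not all oxidation enzymes, and they also include *prx-5* (3.47), *pmp-1* (2.12), *pmp-2* (3.76) and *pmp-4* (2.32).

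Fatty acid synthesis and its regulators had a median level of 341 over 12 genes, of which 11 reached 10. The acetyl-CoA carboxylase gene *pod-2* and the fatty acid synthase gene *fasn-1* had levels of 210 and 258. Of the regulators, *nhr-49* (365) and *mdt-15* (248) lay above *sbp-1* (57.0), and *nhr-80*, known to promote expression of the stearoyl-CoA desaturases, had a level of 3.18. Of 8 genes of lipid storage and breakdown, 6 reached 10, with the perilipin gene *plin-1* at 790 and the adipose triglyceride lipase gene *atgl-1* at 495. *atgl-1* is a lipase outside the *lipl* family, and its level was higher than that of any *lipl* gene. The yolk receptor gene *rme-2* had a level of 1539, the highest of the 50 and above *lbp-9*.

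**Figure D5:**
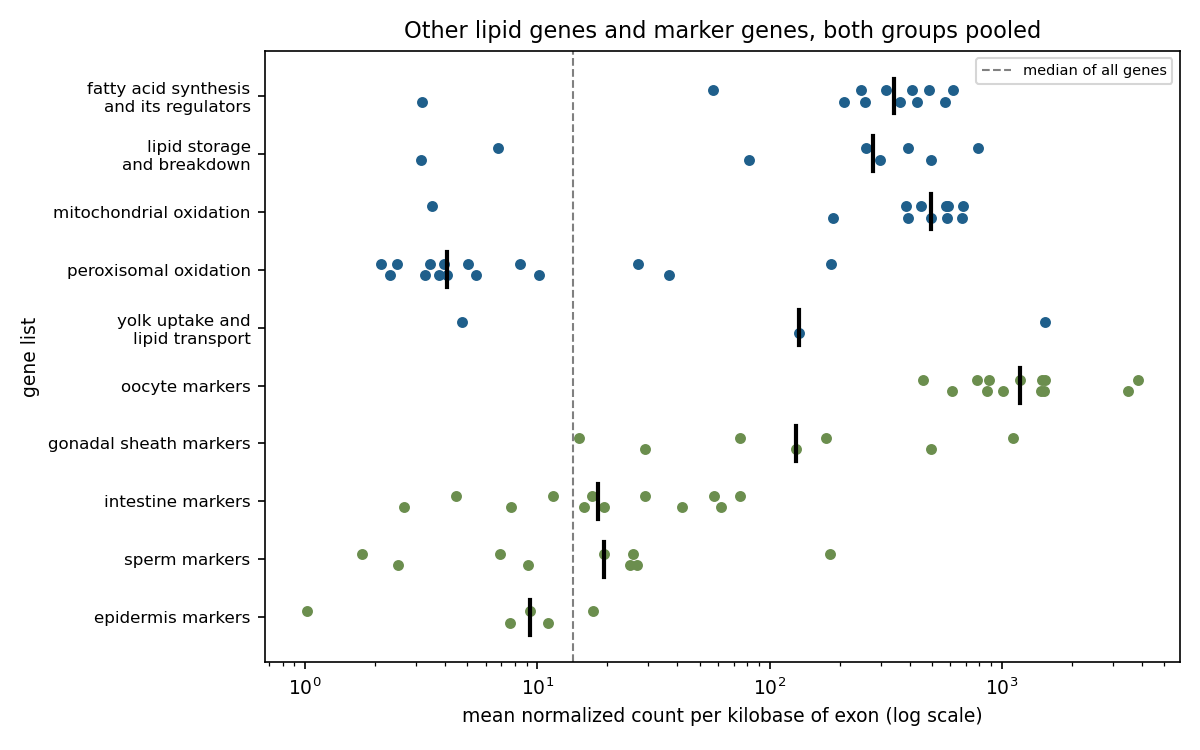
Levels of other genes of lipid metabolism (blue) and of marker genes (green), as the authors' mean normalized count per kilobase of exon on a log axis. Points are genes and vertical black lines are list medians, 495 for mitochondrial and 4.07 for peroxisomal oxidation, and the dashed line marks the median of all genes, 14.2.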

How the data were processed

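RNA from dissected oocytes of 17 libraries (8 from 300 mM NaCl, 9 from control culture) was sequenced by the authors. The libraries carry 3 replicate numbers per group, with letters whose meaning the labels do not give. A legend in the study's supplement gives 3 replicates for either culture, a replicate being 3 oocytes of the same mother. Which libraries the mean covers is therefore unclear. STARsolo quantified reads against WBcel235, and the authors compared the groups with DESeq2. A filter on genes with under 10 reads over all samples is stated, but the lowest mean in the table, 0.0308, equals 0.524 normalized reads over 17 libraries, and 463 genes lie under 10 on that basis, so how the filter applies to the table is unclear. Per the labels, the processing notes name STAR and kallisto. Versions, strand setting and the libraries entered are not given in the sources used here. The deposited signal used here is the authors' mean normalized count, in which read counts were divided by a size factor per library and averaged. It is not divided by gene length. The other 5 columns hold the authors' own comparison of the groups (log2 fold change, its standard error, a test statistic, p and adjusted p) and were not used, and 0 columns name a library. No test between groups was therefore made, the planned count test included, and precision and depth per library are unknown.

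Members were selected by name. The members and gene lists were chosen with earlier results of these data known. All 77 members had an annotation. Each mean was divided by the length of the union of exons in Ensembl release 115, annotated on the authors' build WBcel235, which held 21399 of 21459 identifiers. Percentiles are the percentage of those genes with a lower level. For each family the text gives the position, mean normalized count and level of the 3 highest genes and the lowest, and of every *fat* and *lbp* gene, and the level of the others by name or range. The part of this rule on closely similar proteins was not applied, and no sequences were used here. Ratios between chosen genes and the neighbouring pairs were picked after the values were seen. Oxidation, storage, synthesis and transport lists held 49 of the 50 other lipid genes, and *lpd-3* (level 87.4) was in none. Intervals for shares are exact binomial (Clopper-Pearson). Lengths and percentiles were tested on simulated data. Alternatives changed the minimum, the length, the reference genes and the treatment of overlapping genes. The work used pandas 2.3.3 and numpy 2.4.6 in Python 3.11.15, with matplotlib 3.10.9 for plots and scipy 1.17.1 for intervals.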

Additional observations from a re-analysis of the deposited data

How the results depend on the processing

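The 57 genes that reached a mean normalized count of 10 became 29 at a minimum of 100 and 75 at a minimum of 1. It was 35 without the 29 members whose gene span overlaps another annotated gene on either strand, because fewer members were left, and 38 when only overlapping exons were left out, an alternative chosen after seeing the data. The median percentile of the members, 55.8, was 52.6 against protein-coding genes and 47.1 among genes that reached 10. With coding length in place of exon length, 0 of 22 results (each family's median, highest gene and its share, and the highest of all 77, added after seeing the data) changed, that is, moved by over 1.5 times or named another gene, while 6 of 22 did without division by length. There *acs-13* was the highest of all and *lbp-9* ranked 9, the highest *acdh* gene was *acdh-12* in place of *acdh-3*, and the share held by *ech-1.2* was 48.5% in place of 28.5%. The other changes were the medians of *acs* (39.8), *lbp* (96.8) and *lipl* (2.86). Without division a median has another unit, so the size of its move is set by gene length and tests nothing. Division by length assumes that reads cover whole transcripts, which was not tested, so orders that change without it are uncertain. The *lbp* median then lay below that of *fat* (179). Over members that reached 10 alone, the median level of the *lipl* family was 19.2 (2 genes) and that of *ech* was 179 in place of 78.2, which put *ech* above *fat* (143). The count of *lipl* genes, 2 of 8 at a minimum of 10, was 8 at a minimum of 1. No paired analysis was possible because the value used is pooled over the libraries of both groups. Alternatives that require the counts of single libraries (another count test or normalization, a count filter, summed replicates, leaving out each replicate) were not run. A mean over libraries cannot show whether a level rests on a few of them.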

Other observations

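The members' shares by chromosome are set beside those of protein-coding genes, and whether they differ was not tested. Members of a family that lie near each other are not independent draws. Chromosome V held 22 of the 77 genes (28.6%) and chromosome IV held 19 (24.7%), while these chromosomes held 22.3% and 16.9% of protein-coding genes in the table. On chromosome V the median level of the members was 4.70, beside 5.33 for its protein-coding genes. A mean normalized count of 10 was reached by 10 of the 22, close to the 41.8% of protein-coding genes on that chromosome. The 12 others there, of 20 such genes in all, include *fat-5*, *fat-7*, *lbp-7* and *lbp-8*. Of the 8 *lipl* genes, 7 are on chromosome V. On chromosome IV the median was 69.9, beside 17.6 for its protein-coding genes, and it carries 5 of the 7 *fat* and 6 of the 9 *elo* genes.

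All 8 X-linked members (*acs-9*, *acs-17*, *acs-22*, *acdh-7*, *acdh-10*, *lbp-1*, *lbp-2* and *lbp-3*) reached a mean normalized count of 10, whereas 55.5% of X-linked protein-coding genes reached it. Their median level was 117, beside 11.6 for X-linked protein-coding genes. The 8 genes are not independent, since *acdh-7* and *acdh-10* are neighbours and so are the *lbp* genes, which leaves 5 separate places on the chromosome. The 7 sheath markers had levels from 15.2 to 1117, with a median of 129, and the part of sheath RNA in these levels was not tested.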
